A study of Mus musculus with 10 samples.

Results

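The annexins are a family of proteins that bind membrane phospholipids when calcium is present. The 9 genes described here (Anxa1 to Anxa8 and Anxa11) were taken from the deposited table by gene name, out of 55858 genes in all, and not by their values. They were measured in whole hearts of 10-day-old mice, in 5 animals of a knockout group (cKO) and 5 control animals. All 10 animals were labelled with 1 genotype, MCM; Chmp4bF/F, that is, a floxed Chmp4b gene with MCM. The cKO animals were given tamoxifen (0.1 mg/g, under the skin, on 2 days from postnatal day 0) so as to delete Chmp4b. Control animals received corn oil instead. Tamoxifen itself, activation of MCM and loss of Chmp4b therefore cannot be told apart in this comparison, and the promoter that drives MCM is not given in the sources used here.

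Annexins share a conserved core that binds calcium and lipid and differ in their N-terminal ends, which hold the binding sites for partner proteins. When the surface membrane of a muscle cell is torn, calcium enters and annexins gather at the wound, where they bridge, curve and cap the membrane. ESCRT-III, the membrane-cutting complex that includes Chmp4b, sheds damaged membrane in the same repair process and also acts on endosomes and lysosomes. The series concerns the role of ESCRT in forming T-tubules, the folds of the surface membrane in heart muscle cells.

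Values are TPM, a normalised transcript abundance. They are corrected for gene length and add up to 1000000 in each library. A change in a few very abundant transcripts moves every other gene, and mitochondrially encoded transcripts took a share of 35.5% to 41.5% in cKO libraries and of 50.0% to 59.4% in controls. Each result is therefore given as deposited and again after division by a size factor per library (the median of ratios over 16393 genes), called here relative to the median gene. Over the 13282 genes tested with limma, the median log2 difference was 0.63 before and 0.01 after this division. Chmp4b itself ranged from 36.3 to 40.0 TPM in cKO and from 36.6 to 58.6 TPM in control hearts, with overlap, and from 27.7 to 31.3 and from 51.4 to 69.7 scaled TPM, without overlap. Heart muscle markers were present in every library, their summed level being 35802 to 40507 TPM in cKO and 35953 to 44128 TPM in control hearts. The read depth behind the values is unknown.

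Annexin transcripts were more abundant in cKO hearts, and the make-up of the family was different. Anxa4 and Anxa7 rose most, to 5.28 and 4.56 times the control level as deposited and 3.15 and 2.73 times relative to the median gene. Anxa5, Anxa2 and Anxa1 rose on both scales by smaller steps. Anxa6 and Anxa11 rose as deposited and were not called relative to the median gene. Anxa3 was not called as deposited and fell relative to the median gene, and Anxa8 was under 1 TPM in every library.

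Of the 8 annexins that passed the filter on low values (at least 1 TPM in at least 5 libraries), 7 rose as deposited at a limma adjusted p under 0.05, where 80.0% of all tested genes were called and 76.5% rose. None fell, where 3.46% of all tested genes did. Scaling left 6 annexins called, with 5 higher in cKO and 1 lower, where 41.6% of all tested genes were called, 20.8% as higher and 20.8% as lower. The values of 7 annexins were higher without overlap between groups as deposited and of 0 lower, against 62.5% and 1.92% of all tested genes. After scaling 5 were higher and 1 was lower without overlap, against 15.8% and 15.5%. The median log2 difference of the 8 was 1.14 as deposited and 0.42 relative to the median gene, beside 0.63 and 0.01 over all tested genes. The summed TPM of the 9 annexins lay between 723 and 915 in cKO hearts and between 324 and 413 in controls. After scaling it lay between 605 and 683 and between 455 and 492, again without overlap.

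**Figure D1:**
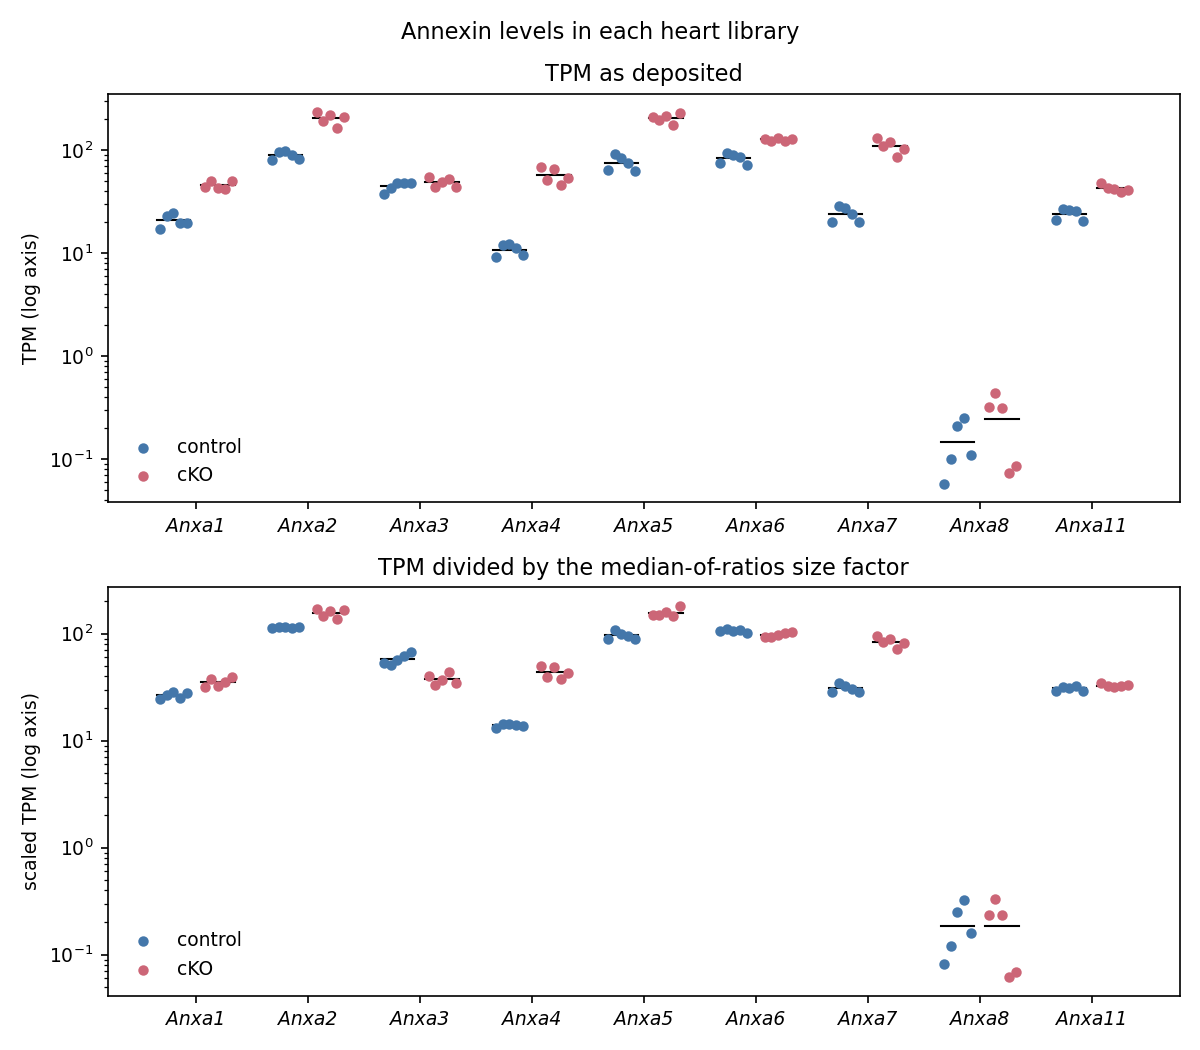
TPM (upper panel) and TPM divided by the size factor (lower panel) of the 9 annexins on log axes, with 1 point per library and a black line at each group's mean. As deposited, Anxa4 lies at 9.26 to 12.1 TPM in control and 45.3 to 68.6 TPM in cKO hearts, and Anxa3 overlaps between groups; after scaling, Anxa3 lies lower in cKO.

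Anxa4, which binds and orders membranes and is known mainly from secretory epithelia, had the largest difference in the family. Its level was 68.6, 51.4, 65.9, 45.3 and 53.9 TPM in cKO replicates 1, 3, 5, 6 and 7. In control replicates 4, 6, 8, 9 and 13 it was 9.26, 11.9, 12.1, 11.1 and 9.55 TPM. The lowest cKO library stood well above the highest control library. The log2 difference was 2.29 ± 0.13 (SE, limma adjusted p = 2.63e-08) as deposited and 1.58 ± 0.08 (SE, limma adjusted p = 1.56e-07) relative to the median gene. On the latter scale Anxa4 exceeded 98.8% of all tested genes in its difference.

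Anxa7, also called synexin, promotes the fusion of secretory membranes and binds sorcin, a calcium-binding protein of heart muscle. It stood at 130, 109, 120, 85.4 and 102 TPM in cKO replicates 1, 3, 5, 6 and 7. The control libraries 4, 6, 8, 9 and 13 had 20.1, 28.9, 27.1, 23.8 and 20.1 TPM. The groups were again far apart, and cKO replicate 6 was the lowest cKO library for Anxa7 as it was for Anxa4. The log2 difference was 2.14 ± 0.13 (SE, limma adjusted p = 5.96e-08) as deposited. Relative to the median gene it was 1.42 ± 0.08 (SE, limma adjusted p = 3.31e-07), above 98.4% of all tested genes.

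Anxa11 has a long N-terminal end like that of Anxa7, binds the penta-EF-hand protein encoded by Pdcd6, and tethers RNA granules to lysosomes. Its level was 47.8, 42.6, 42.1, 38.9 and 41.1 TPM in cKO replicates 1, 3, 5, 6 and 7 and 20.7, 26.9, 26.2, 25.6 and 20.4 TPM in control replicates 4, 6, 8, 9 and 13. The groups did not overlap as deposited. The log2 difference was 0.81 ± 0.10 (SE, limma adjusted p = 1.31e-05) as deposited. Scaled values overlapped, from 31.4 to 34.6 in cKO and from 29.1 to 32.5 in control hearts, and the difference of 0.09 ± 0.06 (SE) relative to the median gene did not pass the test (limma adjusted p = 0.229). When TPM was instead closed again without the mitochondrially encoded genes, Anxa11 rose by 0.38 (limma adjusted p = 0.000899); on that scale the median of all tested genes lay at 0.28.

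Anxa2 forms a complex with the S100a10 protein, links membranes to actin and takes part in endosome traffic and in the plasmin system of the cell surface. It was among the most abundant annexins, with 233, 192, 219, 165 and 207 TPM in cKO replicates 1, 3, 5, 6 and 7. Control replicates 4, 6, 8, 9 and 13 had 79.8, 96.4, 97.8, 89.1 and 81.0 TPM. All cKO libraries lay above all control libraries on both scales. The log2 difference was 1.18 ± 0.11 (SE, limma adjusted p = 1.03e-06) as deposited and 0.44 ± 0.06 (SE, limma adjusted p = 0.000208) relative to the median gene.

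Anxa1, the mediator of glucocorticoid action that restrains inflammation through formyl peptide receptors and binds S100a11, followed Anxa2 closely. Its level was 43.9, 49.5, 43.1, 41.9 and 49.6 TPM in cKO replicates 1, 3, 5, 6 and 7, against 17.3, 22.6, 24.3, 19.8 and 19.7 TPM in control replicates 4, 6, 8, 9 and 13. The groups were separate, also after scaling. The log2 difference was 1.11 ± 0.10 (SE, limma adjusted p = 1.26e-06) as deposited and 0.39 ± 0.08 (SE, limma adjusted p = 0.00180) relative to the median gene.

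Anxa5, whose protein binds exposed phosphatidylserine and forms ordered arrays on it, was level with Anxa2 at the top of the family in cKO hearts. It had 208, 194, 213, 173 and 229 TPM in cKO replicates 1, 3, 5, 6 and 7. In control replicates 4, 6, 8, 9 and 13 it had 63.5, 90.6, 83.4, 75.2 and 62.4 TPM. The lowest cKO value was above the highest control value on both scales. The log2 difference was 1.44 ± 0.12 (SE, limma adjusted p = 5.30e-07) as deposited and 0.70 ± 0.08 (SE, limma adjusted p = 2.78e-05) relative to the median gene.

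Anxa6, the large annexin with a duplicated core, is abundant in striated muscle and forms the cap over muscle membrane wounds. Its level was 129, 122, 131, 122 and 129 TPM in cKO replicates 1, 3, 5, 6 and 7, a spread of 3.30% of the mean (coefficient of variation). Control replicates 4, 6, 8, 9 and 13 had 75.4, 93.4, 88.9, 84.9 and 71.5 TPM. As deposited the groups were separate and the log2 difference was 0.61 ± 0.09 (SE, limma adjusted p = 3.80e-05), which is close to the median of all tested genes. Relative to the median gene the groups overlapped, with 93.3 to 103 in cKO and 102 to 111 in control hearts, and the difference of -0.12 ± 0.05 (SE) did not pass the test (limma adjusted p = 0.0764). Its direction depended on the scaling: closed again without the mitochondrially encoded genes, Anxa6 rose by 0.17 (limma adjusted p = 0.0128), below the median of 0.28 that all tested genes had on that scale.

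Anxa3 and Anxa8 stood apart from the rest. Anxa3, known from neutrophils and endothelial cells, had 55.2, 43.6, 49.0, 51.9 and 43.6 TPM in cKO replicates 1, 3, 5, 6 and 7 and 37.6, 42.8, 48.3, 48.1 and 47.3 TPM in control replicates 4, 6, 8, 9 and 13. These values overlapped, and the log2 difference of 0.12 ± 0.10 (SE) as deposited did not pass the test (limma adjusted p = 0.295). Relative to the median gene Anxa3 had 33.3 to 43.4 in cKO and 50.9 to 67.8 in control hearts without overlap, and it fell by 0.61 on the log2 scale (SE 0.09, limma adjusted p = 0.000304). Its difference on that scale exceeded only 9.67% of all tested genes. Anxa8, an annexin of squamous epithelia, did not reach 1 TPM in any library and was not part of the fit across genes. It had 0.324, 0.436, 0.314, 0.0739 and 0.0864 TPM in the cKO libraries and 0.0583, 0.101, 0.211, 0.254 and 0.111 TPM in the control libraries, in the order used above. The groups overlapped, with a two-sided exact permutation p = 0.238 as deposited and an exact permutation p = 0.968 after scaling.

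**Figure D2:**
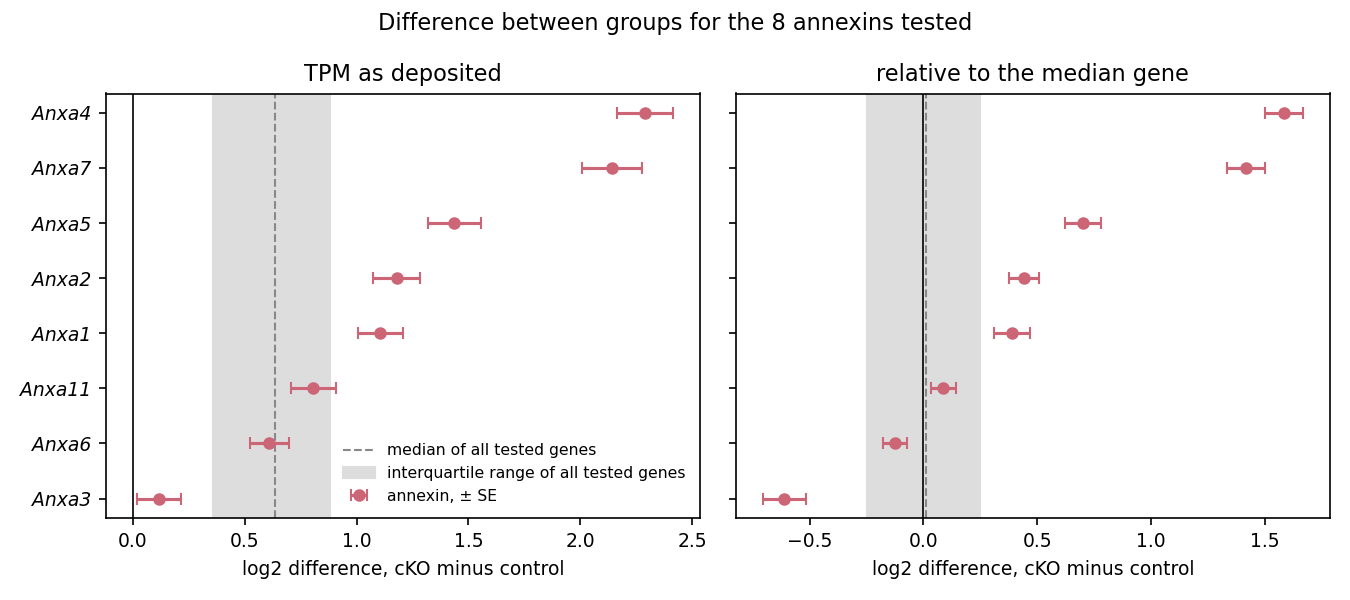
Log2 difference (cKO minus control, ± SE) of the 8 annexins tested, as deposited (left) and relative to the median gene (right), with the interquartile range of all tested genes in grey and their median as a dashed line. Anxa4 (2.29 and 1.58) and Anxa7 (2.14 and 1.42) lie far to the right on both scales, Anxa6 and Anxa11 lie within the grey band on both, and Anxa3 (0.12 and -0.61) lies to its left.

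The order of the annexins by TPM, a level corrected for gene length, was not the same in the groups. In control hearts Anxa2 was first (88.8 ± 8.37 TPM, SD, n = 5), followed by Anxa6 (82.8 ± 9.16) and Anxa5 (75.0 ± 12.3), and the ranges of these neighbours overlapped. Anxa3 came next (44.8 ± 4.60), apart from its neighbours, and then Anxa7 (24.0 ± 3.98), Anxa11 (24.0 ± 3.13) and Anxa1 (20.7 ± 2.75), which overlapped with one another in that order. Anxa4 was the lowest of the 8 (10.8 ± 1.33), below the range of Anxa1. In cKO hearts Anxa5 (204 ± 21.02 TPM, SD, n = 5) and Anxa2 (203 ± 26.2) led and overlapped. Anxa6 (126 ± 4.18) and Anxa7 (109 ± 17.05) formed the next overlapping pair. Anxa4 (57.0 ± 9.92), Anxa3 (48.7 ± 5.12), Anxa1 (45.6 ± 3.69) and Anxa11 (42.5 ± 3.28) followed, each overlapping with the next. Anxa4 thus moved from the eighth to the fifth place, and Anxa3 from the fourth to the sixth.

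Shares within the family do not depend on the scaling of a library and are given as a description, with no test. Anxa4 made up 2.91% ± 0.0474 of the summed annexin TPM in control and 6.78% ± 0.640 in cKO hearts (SD, n = 5), and Anxa7 made up 6.43% ± 0.371 and 13.02% ± 1.07. Anxa5 went from 20.1% ± 1.15 in control to 24.3% ± 1.49 in cKO hearts. The shares of these 3 genes were higher in every cKO library than in any control library. The shares of Anxa6 (22.3% ± 0.707 in control and 15.2% ± 1.01 in cKO), Anxa3 (12.2% ± 1.44 and 5.86% ± 0.811) and Anxa11 (6.45% ± 0.221 and 5.09% ± 0.286) were lower in every cKO library. Because shares add up to the whole, a lower share is not by itself a lower level. Anxa6 and Anxa11 rose as deposited and were not called relative to the median gene, where Anxa3 fell. Anxa2 held 24.0% ± 0.554 and 24.2% ± 1.01, and Anxa1 5.58% ± 0.332 and 5.48% ± 0.610, with overlap.

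**Figure D3:**
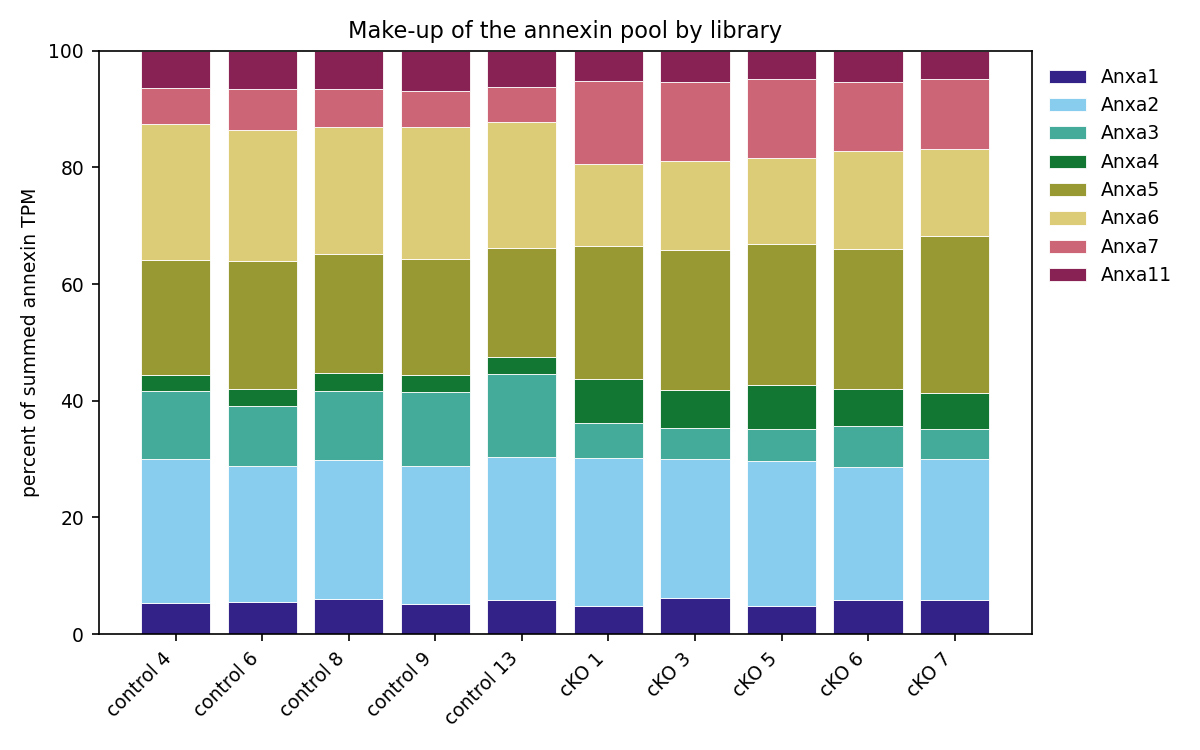
Percent of the summed annexin TPM held by each annexin in each library, controls on the left; Anxa8, at under 0.1% in each library, is not drawn. The bands of Anxa4 and Anxa7 are wider in all 5 cKO libraries, those of Anxa3 and Anxa6 are narrower, and those of Anxa1 and Anxa2 keep about the same width.

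The same values can be read as ratios between members within a library, which also need no scaling. The pairs were chosen after their values were seen, so ratios without overlap are a description and no separate support. The TPM ratio of Anxa5 to Anxa6 was 0.841 to 0.970 in control and 1.42 to 1.78 in cKO libraries, so that Anxa6 was above Anxa5 in all 5 controls and below it in all 5 cKO hearts. Anxa7 and Anxa11 were near parity in control libraries (0.931 to 1.07), while Anxa7 was 2.20 to 2.85 times Anxa11 in cKO libraries. Anxa4 was 0.202 to 0.279 times Anxa3 in control and 0.872 to 1.34 times in cKO libraries. The ratio of Anxa2 to Anxa1 overlapped between groups, at 4.03 to 4.62 in control and 3.87 to 5.31 in cKO libraries.

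**Figure D4:**
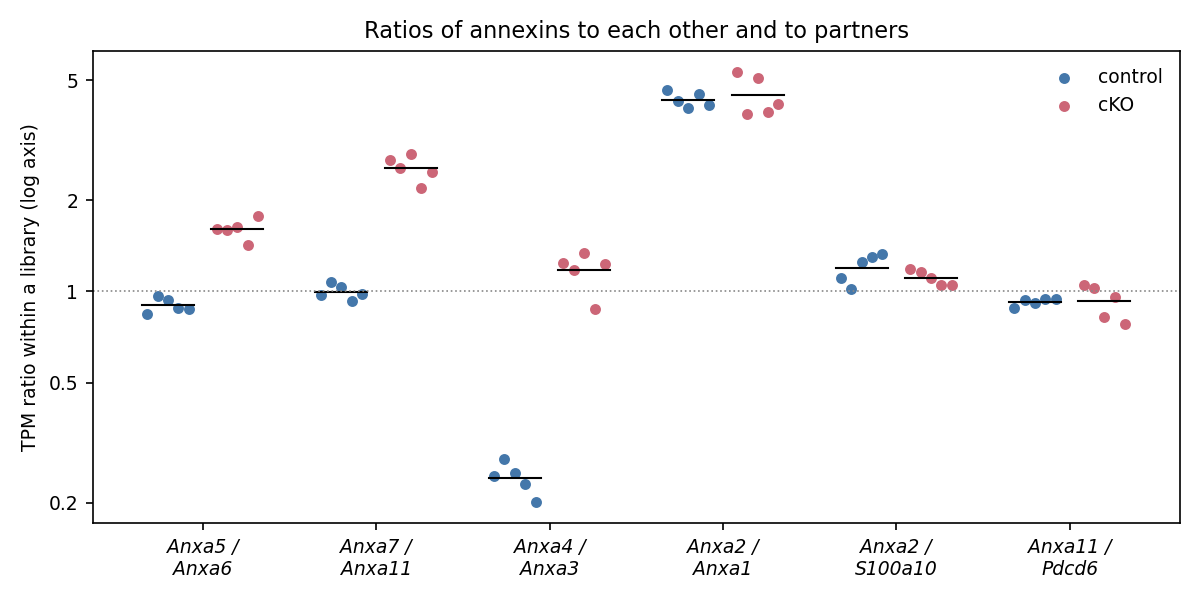
TPM ratio of pairs of genes within each library on a log axis, with 1 point per library and a black line at each group's mean; the dotted line marks equal levels. Anxa5 to Anxa6, Anxa7 to Anxa11 and Anxa4 to Anxa3 do not overlap between groups, whereas Anxa2 to Anxa1, Anxa2 to S100a10 and Anxa11 to Pdcd6 do.

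The partner genes of the annexins were read from the same fits, and 21 of the 24 listed passed the filter. As deposited 16 rose and 0 fell, where 76.5% of all tested genes rose and 3.46% fell, and the median log2 difference was 0.99. Relative to the median gene there were 10 rises, 6 falls and 5 genes without a call, and the median was 0.26. On that scale 20.8% of all tested genes rose and 20.8% fell. When TPM was closed again without the mitochondrially encoded genes, 14 rose and 3 fell, where 45.7% of all tested genes rose and 10.5% fell. Counts over all genes on the deposited and median-gene scales are those given above for the annexins.

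All 4 genes for S100 partners, small EF-hand proteins that bind the N-terminal ends of annexins, rose as deposited, and 2 of them rose relative to the median gene. S100a11, the partner of Anxa1, went from 196 ± 17.7 TPM in control to 532 ± 85.5 TPM in cKO hearts (SD, n = 5). Relative to the median gene it rose by 0.68 (limma adjusted p = 0.000178). S100a10, the partner of Anxa2, went from 74.9 ± 12.6 to 183 ± 19.7 TPM and rose by 0.55 after scaling (limma adjusted p = 0.000351). The ratio of Anxa2 to S100a10 was 1.02 to 1.33 in control and 1.05 to 1.18 in cKO libraries, with overlap between groups. After scaling, S100a6 (0.46, limma adjusted p = 0.109) and S100a4 (0.31, limma adjusted p = 0.318) were not called.

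Among the 9 membrane repair genes, 6 rose as deposited and 3 were not called, whereas after scaling 5 rose and 4 fell. Ahnak, which encodes a giant scaffold bound by the Anxa2 complex, had the largest difference of the partner list, from 14.3 ± 1.59 to 58.8 ± 8.41 TPM (SD, n = 5). Its log2 difference relative to the median gene was 1.24 ± 0.08 (SE, limma adjusted p = 4.01e-07). Cav3, the muscle caveolin gene, was at the other end, with 56.5 ± 6.62 TPM in control and 55.9 ± 5.15 TPM in cKO hearts. It was not called as deposited (limma adjusted p = 0.918) and fell by 0.74 after scaling (limma adjusted p = 5.06e-05). The other 3 that fell on that scale were Dysf, Trim72 and Smpd1, named after their values were seen, at -0.53, -0.67 and -0.46. Dysferlin, from Dysf, brings annexins to the wound in muscle, and the Trim72 protein, also called MG53, seals the tear. Smpd1, the acid sphingomyelinase gene, was the 1 gene of the list called in opposite directions on the 2 scales: it rose by 0.27 as deposited (limma adjusted p = 0.0133). The 3 calpain genes Capn1, Capn2 and Capns1, whose proteases cut repair proteins at the wound, rose on both scales (0.32, 0.26 and 0.47 relative to the median gene) and are also named after their values were seen.

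Of the 4 penta-EF-hand partners, 3 rose as deposited, and after scaling 1 rose and 1 fell. Pef1 rose by 0.40 after scaling (limma adjusted p = 0.000785), and Gca fell by 0.47 (limma adjusted p = 0.0202). As deposited Gca was not called (0.18, limma adjusted p = 0.324), and its values overlapped between groups on both scales. Sri, the sorcin gene and partner of Anxa7, went from 47.1 ± 9.66 TPM in control to 75.3 ± 5.03 TPM in cKO hearts and had no call after scaling (limma adjusted p = 0.763); it is named after its values were seen. The TPM ratio of Anxa7 to Sri was 0.433 to 0.643 in control and 1.20 to 1.70 in cKO libraries, without overlap. In contrast, the ratio of Anxa11 to its partner gene Pdcd6 overlapped, at 0.883 to 0.944 and 0.781 to 1.05.

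Among the signalling partners, Pla2g4a, which encodes the cytosolic phospholipase that Anxa1 inhibits, went from 1.38 ± 0.290 to 4.79 ± 0.818 TPM (SD, n = 5) and rose by 0.76 after scaling (limma adjusted p = 0.000119). Prkca, the gene of a kinase that binds Anxa6, fell by 0.43 on that scale (limma adjusted p = 0.0306). As deposited Prkca was not called (0.22, limma adjusted p = 0.198), and its values overlapped between groups on both scales. Plat, tissue plasminogen activator, rose by 0.18 after scaling (limma adjusted p = 0.0435). The Anxa1 receptor genes Fpr1 and Fpr2 and the plasminogen gene Plg did not pass the filter. Fpr1 had 0.140 to 0.736 TPM in cKO and 0 to 0.168 TPM in control libraries, and Fpr2 had 0.0883 to 0.743 and 0.0687 to 0.347 TPM.

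**Figure D5:**
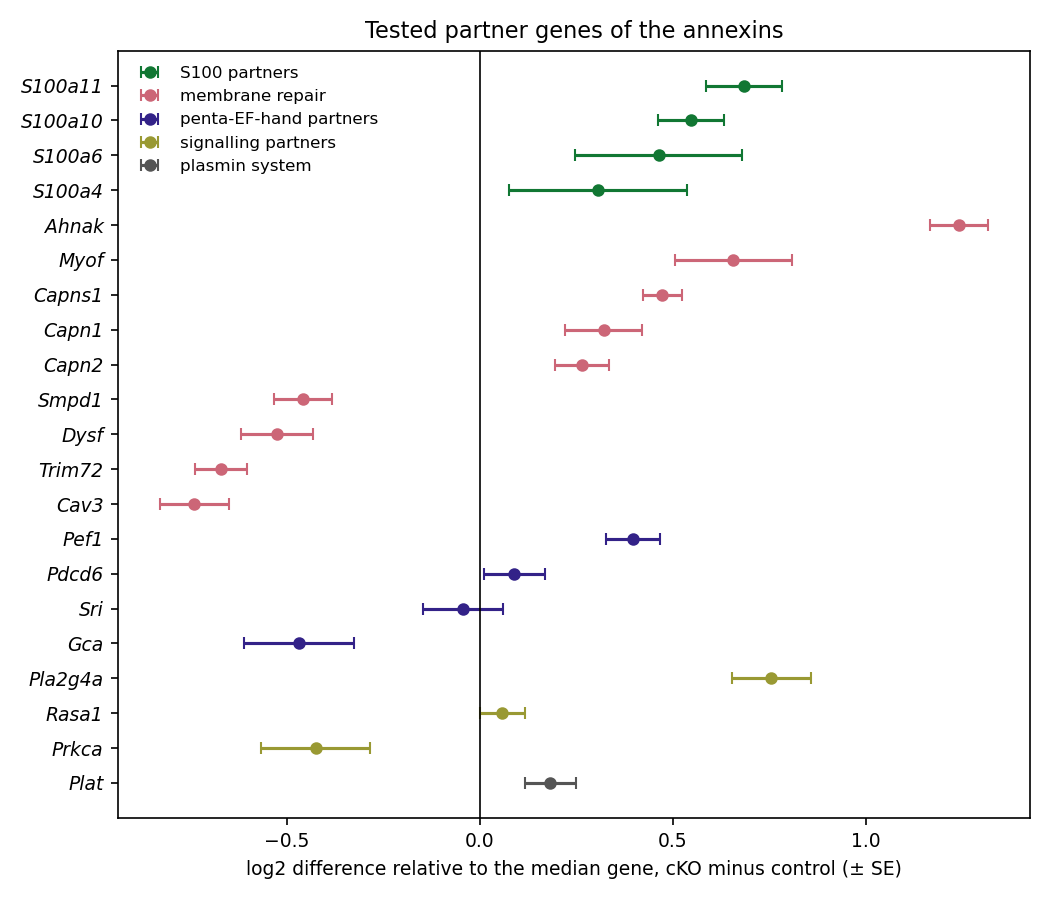
Log2 difference relative to the median gene (cKO minus control, ± SE) of the 21 partner genes that passed the filter, coloured by role. Ahnak (1.24), Pla2g4a (0.76) and S100a11 (0.68) lie farthest to the right, and Cav3 (-0.74), Trim72 (-0.67) and Dysf (-0.53) farthest to the left.

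Whole hearts hold many cell types, and in such bulk samples fewer cells of a type and less RNA per cell cannot be told apart. The marker counts here stand beside shares over all tested genes of 76.5% higher and 3.46% lower as deposited. Relative to the median gene these shares were 20.8% higher and 20.8% lower. Macrophage markers rose on both scales in 13 of 13 tested genes of 14, and their summed level was 472 to 703 TPM in cKO and 82.4 to 116 TPM in control hearts (381 to 561 and 118 to 138 after scaling). Among them Fcgr1, at 0.217 to 0.437 TPM in control hearts, passed the filter through the cKO libraries alone. The marker not tested, Cd163, had 0.222 to 1.05 TPM in cKO and 0.195 to 0.537 TPM in control hearts. Its values overlapped between groups on both scales. Fibroblast markers rose as deposited in 8 of 8, and relative to the median gene 7 rose and 1 fell; their summed scaled level was 1535 to 1862 in cKO and 1089.6 to 1398 in control hearts. Both moved with the rises of Anxa1, Anxa2, Anxa4, Anxa5 and Anxa7, and their part in those rises was not tested. Of 10 endothelial markers, 8 fell after scaling and 0 rose, the median being -0.54 beside the -0.61 of Anxa3. As deposited 2 of them rose and 0 fell (median 0.17), beside the 0.12 of Anxa3. Their summed scaled level was 851 to 1160 in cKO and 1412 to 1697 in control hearts. Whether endothelial cells had a part in the values of Anxa3 was not tested. All 8 heart muscle markers fell after scaling (median -0.95). As deposited 3 of them fell and 5 were not called. Of 6 neutrophil markers 2 passed the filter; 1 of them rose as deposited and neither was called relative to the median gene. The epithelial markers Krt14 and Sftpc were at 0 in all 10 libraries, and the summed level of all 6 epithelial markers was at most 1.72 TPM. Of 6 epicardial and mesothelial markers 1 passed the filter, and it fell on both scales. Smooth muscle and pericyte markers gave 5 higher and 0 lower of 8 as deposited and 2 higher and 3 lower relative to the median gene. On either scale 0 of 3 tested erythroid markers were called. None of the 14 macrophage, 8 fibroblast or 10 endothelial markers was at 0 in all libraries.

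The genes most like Anxa4, Anxa7 and Anxa3 were sought by the smallest root mean square difference between log2 profiles over the 10 libraries, each profile set to its control mean relative to the median gene, among 11999 genes. For Anxa4 they were Tmbim1 (0.102), a gene for a membrane protein of endosomes and lysosomes, Mylk2 (0.112) and Evi2a (0.118). Tmbim1 went from 15.7 TPM in control to 83.5 TPM in cKO hearts. For Anxa7 they were Igtp (0.0859), an interferon-induced GTPase gene, Frem1 (0.0920) and the amino acid transporter gene Slc7a7 (0.0934). For Anxa3, the annexin with the lowest difference, they were Nos3 (0.0763), the endothelial nitric oxide synthase gene, Snhg4 (0.0954) and Pdp2 (0.0965). The profiles share the step between groups, and Mylk2, Frem1, Evi2a, Igtp, Slc7a7 and Pdp2 had under 3 TPM in control hearts. At such levels the 1 added before taking logs understates fold changes, so a like profile is not a like fold change. Mylk2 went from 0.133 TPM in control to 3.36 TPM in cKO hearts, Frem1 from 0.271 to 3.40 TPM and Evi2a from 0.887 to 7.28 TPM. With so low a control mean, Mylk2 passed the filter on low values through the cKO libraries alone.

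The 9 genes lie on 7 chromosomes of GRCm38 (mm10), by GENCODE M21, and all are protein-coding. Anxa4 spans chr6:86736840-86793584 on the minus strand, and Anxa7 spans chr14:20455260-20480133 on the minus strand. Anxa11 (chr14:25842156-25886804, plus strand) and Anxa8 (chr14:34085981-34100571, plus strand) are on the same chromosome as Anxa7, and these 3 did not move alike. Anxa2 lies at chr9:69453620-69491795 and Anxa3 at chr5:96793339-96845966, both on the plus strand. Anxa1 (chr19:20373428-20390944), Anxa5 (chr3:36448923-36475894) and Anxa6 (chr11:54979108-55033445) are on the minus strand. Other annotated genes overlap 7 of the 9, all but Anxa6 and Anxa7, and whether reads were counted by strand is not given in the sources used here. The most abundant overlapping gene, Gm44036 on the strand opposite to Anxa4, reached 3.62 TPM, and the antisense gene of Anxa11 reached 0.0968 TPM.

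Promoter windows, from 250 bases before to 50 bases after a start site, were found in the RefSeq table (GRCm38.p6) for 7 of the 9 annexins. The 250 bases before the outermost start site of Anxa4 and of Anxa7, the annexins with the largest rises, are shown 5′ to 3′ on the gene's strand. Capitals mark a match to the antioxidant response element letters TGACNNNGC, on either strand.
Anxa4, chr6:86793585-86793834, minus strand: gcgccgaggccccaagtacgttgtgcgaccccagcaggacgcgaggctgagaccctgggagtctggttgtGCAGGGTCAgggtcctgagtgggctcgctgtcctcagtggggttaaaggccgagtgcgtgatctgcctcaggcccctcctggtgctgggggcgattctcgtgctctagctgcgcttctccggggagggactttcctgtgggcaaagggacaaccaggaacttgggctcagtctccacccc
Anxa7, chr14:20480134-20480383, minus strand: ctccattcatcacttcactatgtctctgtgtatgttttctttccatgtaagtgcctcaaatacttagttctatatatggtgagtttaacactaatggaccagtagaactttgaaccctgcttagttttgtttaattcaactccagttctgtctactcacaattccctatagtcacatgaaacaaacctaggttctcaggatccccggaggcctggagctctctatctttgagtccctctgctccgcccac

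The windows differed in base composition, at 65.3% G and C with 20 CG pairs for this Anxa4 window and 44.7% with 4 CG pairs for this Anxa7 window, against medians of 52.7% and 7 over all 32851 windows. A second, inner start site of Anxa7 had 60.7% and 19 CG pairs, and its window held the E-box CACGTG, which 7.15% of all windows hold. The match is shown in capitals in a stretch of 30 bases.
Anxa7, chr14:20480037-20480066, minus strand: ctgagatatagaCACGTGttaaaactagct

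On both strands, TGACNNNGC stood in windows of 2 annexins, Anxa4 and the inner start of Anxa7, and in 12.4% of all windows. The AP-1 letters TGANTCA stood in the window of Anxa2 alone among the annexins (7.81% of all windows), and GGGGCGGGG in that of Anxa11 (11.4%). The other motifs searched, CCAAT (37.4%), TGACGTCA (1.79%), TCACGTGA (0.974%, which contains CACGTG), and the CLEAR, interferon response and CArG box elements, had no match in the annexin windows. No motif was shared by the 5 annexins that rose relative to the median gene.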

How the data were processed

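The authors deposited 1 table of TPM, whose 10 libraries each sum to 1000000. The submitters' processing notes name HTSeq 0.11.2, STAR 2.7.1, DESeq2 1.22.2, Trimmomatic 0.32 and Picard 1.96 without a role, and the mm10 build. The annotation release, gene lengths and strand setting are not given in the sources used here. TPM keeps no depth. Groups and replicate numbers came from the sample titles. No 2 libraries held identical values.

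Genes with at least 1 TPM in at least 5 libraries (13282) were compared as log2(TPM + 1) with limma 3.58.1 in R 4.3.3 (mean-variance trend, two-sided, Benjamini-Hochberg over all tested genes, called at an adjusted p under 0.05), as deposited and divided by median-of-ratios size factors. Fold changes of low genes are understated by the pseudocount of 1. For Anxa8 an exact permutation test (two-sided, 252 arrangements) was used. The fit was also run on simulated data with independent noise and few changed genes. That setting differs from these data, where most genes were called as deposited, and no conclusion is drawn from it. Coordinates are from GENCODE M21, matched without ID version (51460 of 55858 IDs, 9 of 9 annexins). Figures and joins used Python 3.11.15 and pandas 2.3.3.

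The members, the partner and marker lists and the naming rule were chosen with earlier results of these data known. The rule names all members, every S100 partner, the largest and smallest difference within each partner role, and the 3 genes closest in profile to the 2 highest and the lowest annexin; others are said to be named after their values were seen. Alternatives were the pseudocount, the filter, the variance model, library weights, a Ddx3y covariate, other scalings and leaving out each library.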

Additional observations from a re-analysis of the deposited data

Results flagged for a closer look

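In 166 groups of 5 values, 5 had 1 library far from the other 4 (Dixon's ratio above 0.71); chance gives about 1 in 20. None of the 5 was an annexin. Myof, the myoferlin gene, stood at 10.2 TPM in cKO replicate 7, with the next library at 6.68, and at 8.14 against 5.12 after scaling. Prkca stood at 9.16 TPM in control replicate 9, with the next library at 6.24, and at 11.7 against 7.81 after scaling. Trim72 stood at 60.1 after scaling in cKO replicate 6, with the next library at 50.6.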

How the results depend on the processing

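The number of annexins called was 7 as deposited in all 18 alternatives run and 6 to 8 in the 20 run beside the median-gene fit. Those 20 include upper quartile scaling and closure without mitochondrially encoded genes. On the latter scale the median of all tested genes lay at 0.28, so it is not relative to the median gene. Leaving out any 1 library kept 7 annexins called as deposited and 6 relative to the median gene. Anxa1, Anxa2, Anxa4, Anxa5 and Anxa7 stayed higher and called in all the alternatives. Anxa3 stayed lower and called in all 20, at -0.66 to -0.55 on leaving out 1 library and at -0.32 when closed without mitochondrially encoded genes. With TPM closed again without mitochondrially encoded genes, Anxa6 turned from -0.12 to 0.17 (limma adjusted p = 0.0128) and Anxa11 became called at 0.38. That setting gave 7 annexins higher and 1 lower, where 45.7% of all tested genes were higher and 10.5% lower. Of all calls there, 81.4% were higher, against 95.7% as deposited, 50.0% relative to the median gene and 52.9% with upper quartile scaling. Over all genes, 10620 were called as deposited (7519 to 11444 in the alternatives) and 5529 relative to the median gene (4066 to 7454 in the 20). Of the partner genes, 14 to 17 and 11 to 17 were called. The highest counts of the 20, 7454 of all genes and 17 partner genes, came with closure without mitochondrially encoded genes. The lowest counts relative to the median gene, 4066 of all genes and 11 partner genes, came with the Ddx3y covariate, which left 6 annexins called. No paired analysis was made because the labels give no pairing of cKO with control animals. The labels do not give the sex or litter of the animals, and p-values set the difference between groups against the spread between these libraries.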

Other observations

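The other annexin genes of the table were close to 0. Anxa9 ranged from 0.141 to 0.497 TPM in cKO and from 0.0873 to 0.344 TPM in control libraries, and Anxa13 from 0 to 0.256 and from 0.157 to 0.395 TPM. Anxa10 was listed at 0 in 9 libraries and at 0.103 TPM in control replicate 4.

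Within the groups the annexins as deposited tended to be lowest in the same libraries. Of the 9 members, 8 were lowest in cKO replicate 6 among the cKO libraries, and among the controls all 9 were lowest in replicate 4 or 13 (5 and 4 members). These libraries had the lowest size factors of their groups (1.20 for cKO replicate 6, 0.712 and 0.697 for control replicates 4 and 13). The typical gene was therefore low there too, and the share over all genes was not counted. After scaling, 5 members were lowest in cKO replicate 6, 7 in control replicate 4 and 1 in control replicate 13. Control replicates 4 and 13 had 59.2% and 59.4% of TPM in mitochondrially encoded genes, the highest of the 10 libraries, and cKO replicate 6 had 41.5%, the highest of the cKO libraries. Scaling narrowed the spread among controls for Anxa4 from 12.4% to 3.98% of the mean (coefficient of variation) and for Anxa2 from 9.42% to 1.52%. For Anxa3 it was 10.3% before and 11.7% after.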
